A study of Mus musculus with 12 samples.

Results

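The genes described here are 39 genes of the NF-kappa B pathway and its feedback, taken by symbol from a table of 21247 genes, and all 39 were found. They comprise 5 NF-kappa B subunits, 6 genes of the IkB family, 7 negative regulators and targets, 9 genes of the kinase module, 8 TRAF, cIAP and RIPK1 adaptors and 4 genes of the CARD-BCL10-MALT1 module. They were measured by bulk RNA-seq of periocular skin in 8 libraries, 4 each labelled ft/ft and ft/ftMyD88-/-, all from 6-week-old mice on the BALB/c background. Both groups carry ft, a spontaneous loss-of-function point mutation of filaggrin (*Flg*), a protein that builds the cornified layer of the epidermis, without the matted mutation of *Tmem79* found in the original flaky tail strain. The second group was in addition bred in-house to lack MyD88, the adaptor through which toll-like receptors and the IL-1 receptor family signal. That deficiency was not restricted to a cell type, and the labels give no treatment. The study asked what the loss of MyD88 does to filaggrin-deficient skin, and the 4 wildtype samples of the series are not analysed here, so no value stands against WT skin.

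NF-kappa B is a family of dimeric transcription factors that IkB proteins hold inactive until the IkB kinase complex marks the IkB for destruction. Receptors for TNF, IL-1, IL-17 and microbial products reach that kinase through TRAF and cIAP ubiquitin ligases, while an alternative route through the kinase NIK activates RelB with the product of *Nfkb2*. Several genes of the pathway are themselves targets of NF-kappa B, among them inhibitors that end the response, and in skin the pathway operates in keratinocytes, resident immune cells and infiltrating leukocytes alike.

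Total counts ran from 18941705 to 29255129 for ft/ft and from 15802957 to 27037997 for ft/ftMyD88-/-. Levels are given as CPM, read counts scaled to a common library size by TMM, whose factors were 0.922 to 0.954 in ft/ft and 1.04 to 1.09 in ft/ftMyD88-/-. *Myd88* itself was no lower where the label was ft/ftMyD88-/-, at 41.2 ± 7.29 against 30.7 ± 4.74 CPM (SD, n = 4 each), so every direction rests on the labels. It was in fact higher (log2 fold change 0.42, adjusted p = 0.0484 by edgeR), a call lost with limma voom and without ft/ft replicate 1, 3 or 4 or ft/ftMyD88-/- replicate 1, 2 or 4 (0.34 to 0.46). Counts per gene do not show whether an exon is missing. Although the mice are described as free of the matted mutation, *Tmem79* was lower, at 16.4 ± 2.1 against 59.2 ± 2.92 CPM (log2 fold change -1.85, adjusted p = 5.08e-07 by edgeR), while *Flg* at 242 ± 39.5 against 103 ± 69.8 CPM did not pass (1.22, adjusted p = 0.12). Counts of *Xist*, a transcript of the inactive X chromosome, were 1, 0, 0 and 0 in ft/ft but 1136, 1261, 1964 and 567 in ft/ftMyD88-/-, and the Y-linked *Ddx3y* stood at 54.2 to 73.2 against 0 to 0.482 CPM. The study gives its mice as sex-matched females, which the *Xist* and *Ddx3y* levels of the ft/ft libraries go against, and the effects of genotype and of sex cannot be told apart here. Keratinocyte markers were abundant in all 8 libraries, with *Krt5*, *Krt14*, *Krt1*, *Krt10* and 4 further genes summing to 27030 to 35620 CPM for ft/ft against 20770 to 24860 for ft/ftMyD88-/-. The markers of other cells are given below beside the results they move with.

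Of the 39 genes, 10 were higher and 3 lower in ft/ftMyD88-/- (edgeR quasi-likelihood test with Benjamini-Hochberg adjustment over 20454 genes, adjusted p under 0.05). That was 25.6% higher and 7.69% lower, where 10.9% of all tested genes were higher and 12.3% lower. The median log2 fold change of the 39 was 0.17 and that of all genes 0.01, and 26 of the 39 had a positive value. The higher genes were *Bcl3*, *Nfkbid*, *Tnfaip3*, *Tnip3*, *Map3k8*, *Map3k14*, *Traf1*, *Traf2*, *Traf3* and *Birc3*. The lower genes were *Rela*, *Card10* and *Card14*. Libraries of the groups did not overlap for 13 genes in the higher direction and 5 in the lower, which holds for 12.5% and 14.2% of all tested genes. Scaling by library size alone moved the median of all genes to 0.19, and then 22 of the 39 genes were higher and 1 lower, where 22.7% and 6.48% of all genes were. The plot of log2 fold changes by role shows these differences with their errors.

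**Figure D1:**
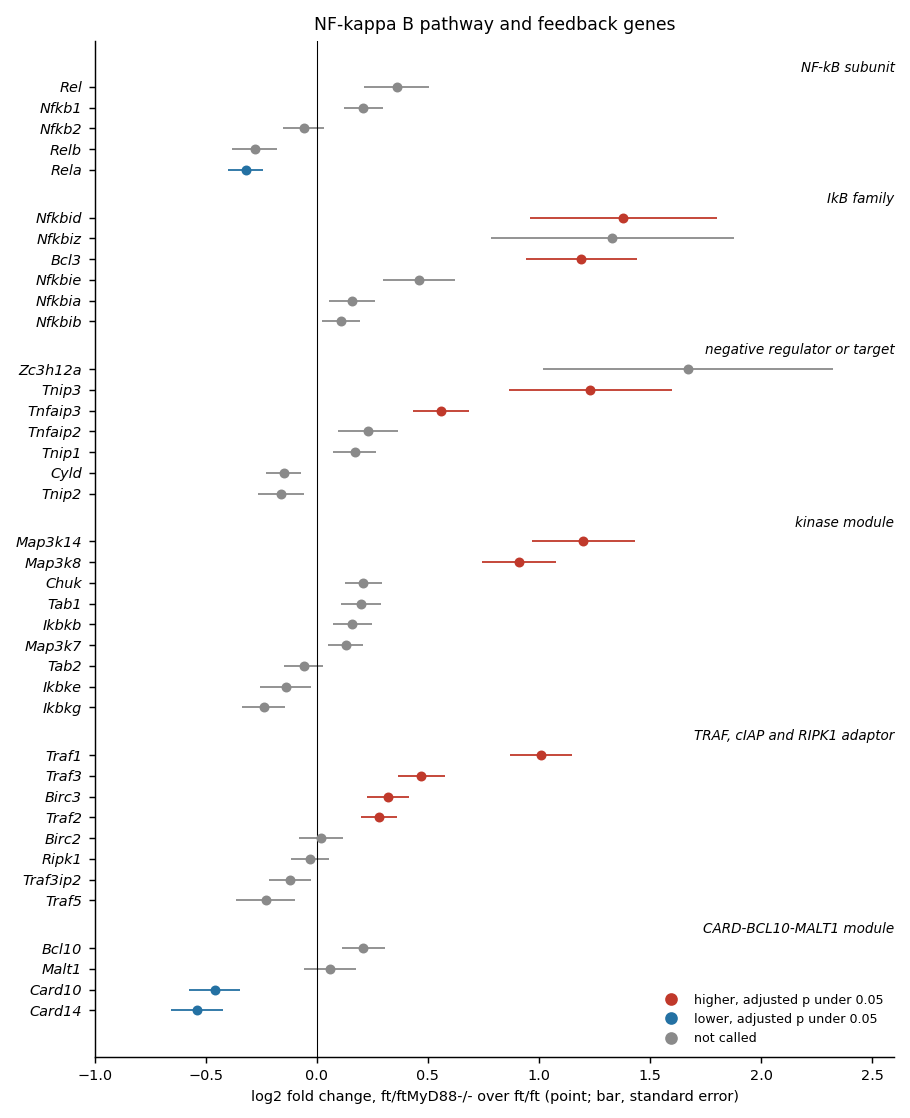
Log2 fold change of each of the 39 genes, ft/ftMyD88-/- over ft/ft, with bars for the standard error and genes grouped by their role (edgeR, n = 4 each). The 10 higher genes lie between 0.28 and 1.38 and the 3 lower ones between -0.54 and -0.32, while *Nfkbiz* and *Zc3h12a* have large values with wide bars.

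Short promoter stretches are shown first for the higher genes in which the kappa B consensus was found, because they are the letters that NF-kappa B dimers are known to recognise, and for 2 genes that did not pass the test. The windows ran from 250 bases before to 50 after each RefSeq start on GRCm38.p6, and the 10-base consensus was searched on both strands. Matches are in capitals, and each stretch is written 5′ to 3′ on the strand of its gene.
*Tnip3*, chr6:65590314-65590383, + strand: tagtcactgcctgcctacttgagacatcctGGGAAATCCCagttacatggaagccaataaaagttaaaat
*Nfkbid*, chr7:30422156-30422264, + strand: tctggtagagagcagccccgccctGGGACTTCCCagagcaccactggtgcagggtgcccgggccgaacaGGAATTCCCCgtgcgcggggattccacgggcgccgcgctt
*Tnfaip3*, chr10:19015411-19015565, - strand: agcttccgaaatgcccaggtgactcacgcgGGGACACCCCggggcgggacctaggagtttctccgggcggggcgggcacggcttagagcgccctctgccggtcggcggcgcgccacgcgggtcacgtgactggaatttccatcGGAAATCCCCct
*Traf3*, chr12:111166330-111166369, + strand: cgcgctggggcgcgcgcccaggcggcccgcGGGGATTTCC
*Bcl3*, chr7:19822734-19822763, - strand: tcggcggcagGGGAAGTCCCgctgcccggc
*Nfkbia*, chr12:55492648-55492706, - strand, not passing the test: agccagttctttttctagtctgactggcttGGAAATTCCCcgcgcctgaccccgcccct
*Nfkb2*, chr19:46304668-46304736, + strand, not passing the test: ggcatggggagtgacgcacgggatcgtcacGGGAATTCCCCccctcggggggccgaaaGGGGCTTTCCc

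RefSeq windows were at hand for 30 of the 39 genes, and 13 of these held at least 1 match (43.3%), against 1388 of 27025 genes in all (5.14%). Since the 39 were chosen to include feedback genes that are targets of NF-kappa B, this share is descriptive only. The 13 were *Tnip3*, *Nfkbid*, *Tnfaip3*, *Traf3*, *Bcl3*, *Nfkbia*, *Nfkb2*, *Rel*, *Nfkbie*, *Tnip1*, *Cyld*, *Map3k7* and *Bcl10*. By call they were 5 of the 9 higher genes with a window, 8 of the 19 that did not pass and 0 of the 2 lower ones. Matches were thus found both in genes that did not pass (42.1%) and in higher ones (55.6%). *Nfkb2* had 4 distinct matched stretches over its 3 windows, *Nfkbid* and *Tnfaip3* had 2 each, and the others 1 each. *Nfkb1*, *Relb*, *Nfkbiz*, *Ikbkb*, *Map3k8*, *Tab1*, *Traf3ip2*, *Card14* and *Malt1* had no window. A match is a description of letters and says nothing of binding in these mice. The map of match positions shows where in the windows they lie.

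**Figure D2:**
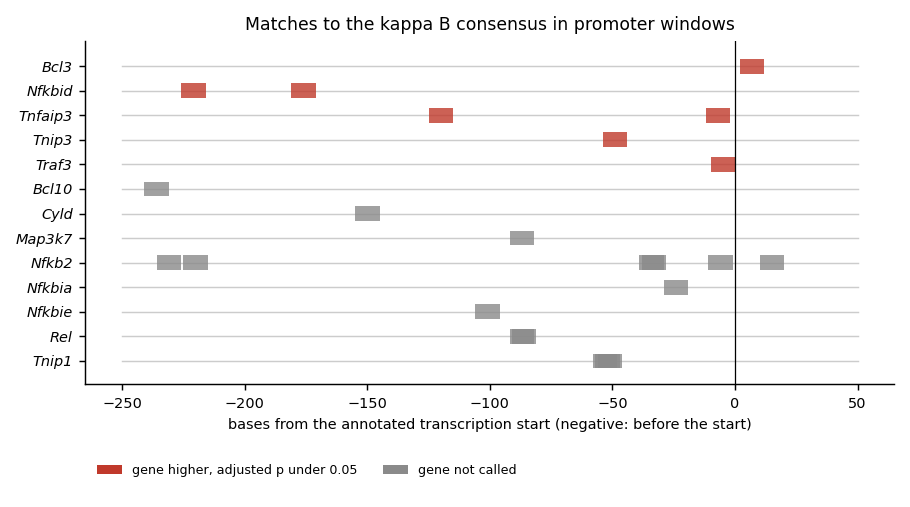
Position of each kappa B consensus match relative to the RefSeq start in the 13 genes that held one, in bases, with genes that were higher in ft/ftMyD88-/- listed apart from those that did not pass. A row gathers all starts of a gene, so a stretch that overlapping windows of *Nfkb2* share is drawn once for each, and matches of *Tnip3*, *Tnfaip3*, *Traf3*, *Bcl3* and *Nfkbia* lie close to the start, the farthest of them at -54 in *Tnip3*, and *Tnfaip3* has another farther upstream at -125.

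Of the 5 subunits, *Rela* was lower and none was higher. *Rela* (chromosome 19, 5637442 to 5648134 on GRCm38.p6), which encodes the transactivating subunit p65 of the common dimer, stood at 69.6, 78.1, 77.3 and 69.2 CPM in ft/ft replicates 1 to 4 and at 61.7, 59.2, 57.1 and 57.2 CPM in ft/ftMyD88-/-. Every ft/ftMyD88-/- library lay under every ft/ft library. The log2 fold change was -0.32 (standard error, SE, 0.0793, adjusted p = 0.0122 by edgeR), a 1.25-fold difference. With library size alone it was -0.15 (edgeR adjusted p = 0.192, and 0.00266 to 0.192 over 15 alternative fits, 8 of them with a library left out), so this call rests on the scaling. *Nfkb1*, the precursor of p50, the usual partner of p65, stood at 93.0, 113, 106 and 93.6 CPM in ft/ft and 115, 125, 114 and 113 CPM in ft/ftMyD88-/-. These groups were separated, narrowly, in the other direction, but the difference did not pass (log2 fold change 0.21, edgeR adjusted p = 0.111) except with library size alone, at 0.38 (adjusted p = 0.00844 by edgeR, range 0.00844 to 0.265 over those fits). The ratio of *Nfkb1* to *Rela* counts within a library, which scaling cannot alter, was 1.34, 1.45, 1.37 and 1.35 in ft/ft and 1.86, 2.11, 2.0 and 1.98 in ft/ftMyD88-/-. This pair was chosen after its values were seen, and the ratio says only that the transcripts changed unequally.

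*Rel*, which encodes the lymphoid subunit c-Rel, had a log2 fold change of 0.36 that did not pass (edgeR adjusted p = 0.0922) and passed with library size alone at 0.54 and without ft/ft replicate 2 at 0.53 (adjusted p = 0.01 by edgeR, range 0.01 to 0.217 over the alternatives). *Relb*, the transactivating subunit of the alternative route, stood at 24.3 to 26.6 CPM in ft/ft and 18.8 to 24.2 CPM in ft/ftMyD88-/-. Its groups stood apart by a small gap, and the log2 fold change of -0.28 did not pass (edgeR adjusted p = 0.0604) except without ft/ftMyD88-/- replicate 2, where it was -0.36. *Nfkb2*, whose precursor is cut to the partner of RelB, had a log2 fold change of -0.06 (SE 0.0915). Per kilobase of exon, the highest subunits in ft/ft were *Rela* at 27.1 ± 1.77 and *Nfkb1* at 24.6 ± 2.36 CPM (SD, n = 4). Their SD ranges overlapped, but neither mean lay within the SD range of the other. *Nfkb2* at 15.6 ± 1.5, *Relb* at 11.6 ± 0.537 and *Rel* at 2.16 ± 0.481 followed in that order. Without division by exon length the ft/ft means were 73.5 CPM for *Rela* and 101 CPM for *Nfkb1*. In ft/ftMyD88-/- *Nfkb1* was at 28.4 ± 1.35 and *Rela* at 21.7 ± 0.805 CPM per kilobase.

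In the IkB family all 6 log2 fold changes were positive and 2 passed, *Bcl3* and *Nfkbid* (33.3%, against 10.9% of all tested genes). Both belong to the nuclear members that modify NF-kappa B at its target genes rather than hold it in the cytoplasm. *Bcl3* (chromosome 7, 19808462 to 19822824), a partner of p50 and p52 dimers, stood at 7.42, 13.7, 6.81 and 5.75 CPM in ft/ft and at 19.4, 22.0, 15.3 and 20.5 CPM in ft/ftMyD88-/-. Its groups did not overlap, although ft/ft replicate 2 came close to the lowest library of the other group. The log2 fold change was 1.19 (SE 0.25, adjusted p = 0.00772 by edgeR), and it passed under all 15 alternatives with values of 1.04 to 1.53.

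*Nfkbid* (chromosome 7, 30421731 to 30428749), which encodes the nuclear protein IkBNS, was scarce. Its counts were 15, 59, 15 and 12 in ft/ft but 67, 79, 51 and 55 in ft/ftMyD88-/-, or 0.643, 2.15, 0.837 and 0.46 CPM against 2.94, 2.9, 1.74 and 3.35 CPM. The groups overlapped, since ft/ft replicate 2 lay above ft/ftMyD88-/- replicate 3. Its log2 fold change was 1.38 (SE 0.421, adjusted p = 0.0367 by edgeR). Without ft/ft replicate 1, 3 or 4 or ft/ftMyD88-/- replicate 1, 2 or 4 the call was lost, at log2 fold changes of 1.13 to 1.35 and edgeR adjusted p of 0.0729 to 0.0943, whereas without ft/ft replicate 2 it was 2.09 (0.00159).

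*Nfkbiz* (chromosome 16, 55811375 to 55838954) encodes IkB zeta, the nuclear IkB that IL-17 and IL-1 induce in keratinocytes. It stood at 23.9, 82.2, 18.1 and 19 CPM in ft/ft and at 102, 88.5, 84.1 and 86.3 CPM in ft/ftMyD88-/-. All 4 ft/ftMyD88-/- libraries lay above all ft/ft libraries, and ft/ft replicate 2 stood with them rather than with its own group. A log2 fold change of 1.33 (SE 0.546) did not pass (edgeR adjusted p = 0.133). Without ft/ft replicate 2 it was 2.15 (edgeR adjusted p = 2.32e-06, and 2.32e-06 to 0.244 over the alternatives), and it also passed with DESeq2 and limma voom. The cytoplasmic inhibitors did not pass: the log2 fold change was 0.16 for *Nfkbia*, which encodes IkB alpha, 0.11 for *Nfkbib* and 0.46 for *Nfkbie* (edgeR adjusted p = 0.287, 0.373 and 0.0551). *Nfkbie* passed with DESeq2, RLE scaling, library size alone, filterByExpr, without ft/ft replicate 3 or without ft/ftMyD88-/- replicate 1, at 0.47 to 0.64. *Nfkbia* was the most abundant of the 39 genes per kilobase, at 68.8 ± 10.3 CPM for ft/ft against 77.0 ± 1.76 for ft/ftMyD88-/- (SD, n = 4).

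Among the negative regulators and targets, *Tnfaip3* and *Tnip3* were higher (28.6%, against 10.9% of all tested genes). *Tnfaip3* (chromosome 10, 19000910 to 19015410), which encodes the ubiquitin-editing enzyme A20 that shuts down signalling to the IkB kinase, stood at 17.4, 18.5, 17.1 and 13.1 CPM in ft/ft and at 27.6, 25.7, 22.9 and 21.4 CPM in ft/ftMyD88-/-. The groups did not overlap. Its log2 fold change was 0.56 (SE 0.126, adjusted p = 0.00768 by edgeR), and it passed under all 15 alternatives. *Tnip3* (chromosome 6, 65590398 to 65634040), a binding partner of A20, had counts of 32, 30, 25 and 13 in ft/ft but 52, 113, 43 and 36 in ft/ftMyD88-/-, or 1.37, 1.09, 1.39 and 0.498 CPM against 2.28, 4.15, 1.46 and 2.2 CPM. The groups nearly touched, at 1.39 and 1.46 CPM, and ft/ftMyD88-/- replicate 2 was far above the rest. Its log2 fold change was 1.23 (SE 0.367, adjusted p = 0.0308 by edgeR). The call was lost with limma voom (0.0518 after adjustment) and without ft/ft replicate 2 or 4 or ft/ftMyD88-/- replicate 2 or 4, where the log2 fold change was 0.87 to 1.3 and the edgeR adjusted p 0.0581 to 0.0941.

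*Zc3h12a* (chromosome 4, 125118414 to 125127881), which encodes the ribonuclease Regnase-1 that degrades cytokine transcripts and is induced by IL-17, had the same high ft/ft library as *Nfkbiz*. It stood at 18.3, 81.4, 13.5 and 16.5 CPM in ft/ft and at 126, 103, 79.0 and 108 CPM in ft/ftMyD88-/-. Again ft/ft replicate 2 was high, here above ft/ftMyD88-/- replicate 3, so the groups overlapped. A log2 fold change of 1.67 (SE 0.653) did not pass (edgeR adjusted p = 0.118), but was 2.69 without that library (edgeR adjusted p = 1.24e-05, and 1.24e-05 to 0.227 over the alternatives), and it also passed with DESeq2 at 1.7 and limma voom at 2.05. The other 4 did not pass, with log2 fold changes of 0.23 for the TNF-induced gene *Tnfaip2*, 0.17 and -0.16 for the A20 partners *Tnip1* and *Tnip2*, and -0.15 for the deubiquitinase *Cyld*. *Tnip1* passed without ft/ft replicate 2, at 0.27.

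The plot of CPM by library shows the 13 genes that passed, together with *Nfkbiz* and *Zc3h12a*.

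**Figure D3:**
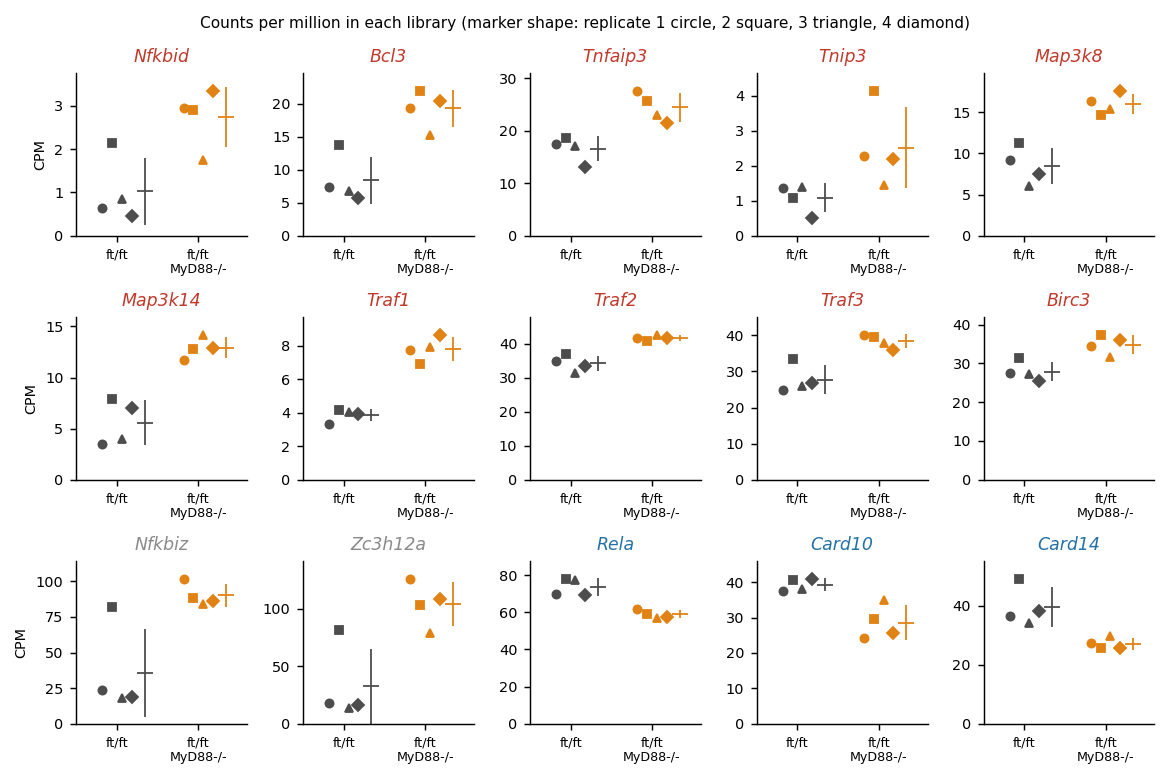
CPM of 15 genes in each of the 8 libraries on axes that start at 0, with marker shapes for replicates 1 to 4 and, beside each group, its mean and SD (n = 4), cut at 0. Titles are red for higher, blue for lower and grey for genes that did not pass, and ft/ft replicate 2 (square) is the highest ft/ft library in *Nfkbiz* at 82.2 and *Zc3h12a* at 81.4 CPM.

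In the kinase module 2 of 9 genes were higher (22.2%, against 10.9% of all tested genes) and none was lower. Both were kinases that act beside the IkB kinase complex rather than parts of it. *Map3k8*, the kinase TPL2 that p105 holds in check and that drives ERK signalling, stood at 9.17, 11.2, 6.02 and 7.44 CPM in ft/ft and at 16.3, 14.7, 15.4 and 17.6 CPM in ft/ftMyD88-/-. Its groups did not overlap, and the log2 fold change was 0.91 (SE 0.168, adjusted p = 0.00269 by edgeR). *Map3k14* (chromosome 11, 103219764 to 103267401), which encodes NIK, the kinase of the alternative route, stood at 3.51, 7.89, 3.96 and 6.98 CPM in ft/ft and at 11.7, 12.8, 14.2 and 12.9 CPM in ft/ftMyD88-/-. Within ft/ft, replicates 2 and 4 were about double replicates 1 and 3, and all 4 lay under the other group. The log2 fold change was 1.2 (SE 0.233, adjusted p = 0.00419 by edgeR). Both kinases passed under all 15 alternatives.

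The core of the complex did not pass: the log2 fold change was 0.21 for *Chuk* (IKK alpha), 0.16 for *Ikbkb* (IKK beta) and -0.24 for the X-linked scaffold *Ikbkg* (NEMO), with edgeR adjusted p of 0.0872, 0.216 and 0.0865. *Chuk* stood at 20.8 to 22.6 CPM in ft/ft and 24.5 to 25.9 CPM in ft/ftMyD88-/-, without overlap, and passed with DESeq2 and with library size alone. *Ikbkg* stood at 51.0 to 63.4 against 40.7 to 48.4 CPM, also without overlap, and passed under none of the 15 alternatives. The related kinase *Ikbke*, the TAK1 kinase gene *Map3k7* and the TAK1 partners *Tab1* and *Tab2* had log2 fold changes of -0.14, 0.13, 0.20 and -0.06. Of these *Tab1* had separate groups, at 19.8 to 23.3 against 23.6 to 25.3 CPM.

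Of the 8 adaptors, 4 were higher (50.0%), none was lower, and those 4 were the ones whose groups did not overlap. Among all tested genes 10.9% were higher, and for 12.5% the groups did not overlap in that direction. *Traf1* (chromosome 2, 34941750 to 34961812), an NF-kappa B-induced adaptor that binds TRAF2, stood at 3.34, 4.15, 4.07 and 3.95 CPM in ft/ft and at 7.76, 6.91, 7.93 and 8.66 CPM in ft/ftMyD88-/-. The lowest ft/ftMyD88-/- library was well above the highest ft/ft library. Its log2 fold change was 1.01 (SE 0.14, adjusted p = 0.000541 by edgeR, range 1.79e-09 to 0.00283 over the alternatives), the smallest adjusted p among the 39 genes. *Traf3* (chromosome 12, 111166321 to 111267155), which marks NIK for destruction together with TRAF2 and the cIAPs, stood at 24.8, 33.5, 25.9 and 26.7 CPM in ft/ft and at 40.2, 39.5, 37.8 and 35.8 CPM in ft/ftMyD88-/-. Here too ft/ft replicate 2 was the highest of its group, and the log2 fold change of 0.47 (SE 0.105, adjusted p = 0.00802 by edgeR) passed under all 15 alternatives.

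*Traf2* (chromosome 2, 25517982 to 25546940), the ligase scaffold of TNF receptors, stood at 34.9, 37.0, 31.5 and 33.4 CPM in ft/ft and at 41.8, 40.7, 42.7 and 41.6 CPM in ft/ftMyD88-/-. The difference was small but the groups were clearly separate (log2 fold change 0.28, SE 0.0806, adjusted p = 0.0238 by edgeR). The call was lost without ft/ft replicate 3 or 4, at 0.25 and 0.27 (edgeR adjusted p = 0.0707 and 0.0728). *Birc3* (chromosome 9, 7847468 to 7873205), the inducible cIAP ubiquitin ligase, stood at 27.4, 31.3, 27.3 and 25.5 CPM in ft/ft and at 34.5, 37.4, 31.6 and 35.9 CPM in ft/ftMyD88-/-. Here ft/ftMyD88-/- replicate 3 lay just above ft/ft replicate 2, and the log2 fold change was 0.32 (SE 0.0953, adjusted p = 0.0296 by edgeR). That call was lost without ft/ft replicate 1, 3 or 4 or ft/ftMyD88-/- replicate 2 or 4, at 0.28 to 0.32 (edgeR adjusted p = 0.0586 to 0.098). Its paralog *Birc2* had a log2 fold change of 0.02 (SE 0.0987), and its neighbours in the pathway, the kinase gene *Ripk1* and the adaptor gene *Traf5*, had -0.03 and -0.23. *Traf3ip2*, which encodes Act1, the adaptor of the IL-17 receptor, had -0.12 (edgeR adjusted p = 0.408).

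In the CARD-BCL10-MALT1 module both scaffold genes were lower (50.0%, against 12.3% of all tested genes) and neither of their shared partners passed. *Card14* (chromosome 11, 119307093 to 119345379), the CARD scaffold of keratinocytes, stood at 36.5, 49.2, 34.1 and 38.2 CPM in ft/ft and at 27.3, 25.6, 29.8 and 25.7 CPM in ft/ftMyD88-/-. The groups did not overlap, and the log2 fold change was -0.54 (SE 0.117, adjusted p = 0.00632 by edgeR). It passed under all 15 alternatives, but 22.7% of its exon bases overlap the antisense gene *Sgsh*, and without a stated strand setting reads of the pair cannot be told apart. The same limit holds for *Nfkb2*, *Nfkbib* and *Traf5*, where antisense genes overlap 19.7%, 14.8% and 10.4% of exon bases, and for smaller parts of some other genes. *Card10* (chromosome 15, 78775123 to 78803072), the CARD scaffold of epithelial and other non-haematopoietic cells, stood at 37.4, 40.7, 38.0 and 41.0 CPM in ft/ft and at 24.1, 29.7, 35.0 and 25.5 CPM in ft/ftMyD88-/-. Replicate 3 of ft/ftMyD88-/- lay nearest to ft/ft, still without overlap. The log2 fold change was -0.46 (SE 0.115, adjusted p = 0.0142 by edgeR), and with library size alone it was -0.28 and did not pass (edgeR adjusted p = 0.115, and 0.00352 to 0.115 over the alternatives). The adaptor gene *Bcl10* had a log2 fold change of 0.21 and the paracaspase gene *Malt1* one of 0.06 (edgeR adjusted p = 0.144 and 0.747).

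Of all tested genes, 10.9% were higher and 12.3% lower, and the counts of marker genes stand beside these shares. Keratinocyte markers were lower in 4 of 8 genes and none was higher, sebocyte markers in 6 of 8 and none, and skeletal muscle markers in 7 of 8 and none. Sebocyte markers summed to 18180 to 20520 CPM for ft/ft against 10880 to 16140 for ft/ftMyD88-/-, and muscle markers to 7874 to 10740 against 3028 to 5835. Fibroblast markers were lower in 3 of 8 genes (14440 to 29670 against 7381 to 10960 CPM) and endothelial markers in 2 of 8, with 1 higher (276 to 333 against 207 to 276 CPM). The fibroblast genes with the highest counts were *Col1a1*, *Col1a2* and *Col3a1*, and 3 of the 8 had a positive log2 fold change, up to 0.39. The sums of these lists moved in the direction of *Rela*, *Card10* and *Card14*. In the direction of the 10 higher genes moved T cell markers, higher in 7 of 8 genes (18.4 to 24.5 against 30.9 to 41.8 CPM), and leukocyte markers, higher in 5 of 8 (248 to 317 against 303 to 408 CPM). Hyperproliferative keratinocyte markers were higher in 3 of 8 (2896 to 3806 against 3488 to 5918 CPM). Neutrophil markers summed to 21.6 to 250 CPM for ft/ft against 399 to 959 for ft/ftMyD88-/-, with 1 of 5 tested genes higher, and *Ly6g* and *Retnlg* were not analysed here. In ft/ftMyD88-/- this sum came mostly from *S100a8* and *S100a9*, with at most 6639 and 11439 counts, against 383 for *Csf3r* and 697 for *Cxcr2*. The neutrophil granule genes *Camp* and *Ngp* had at most 6 and 2 counts in any library, and *Ngp*, at 0 in 4 of the 8, was the only marker of any list with a library at 0. Macrophage and monocyte markers were higher in 1 of 8 genes (273 to 384 against 315 to 466 CPM). Their median log2 fold change was -0.07, and 3 of the 8 had a positive value. Dendritic and Langerhans cell markers were higher in 3 of 8 and lower in 1 (352 to 390 against 374 to 428 CPM). In that list *Epcam* had the highest counts, up to 8353, against 1203 at most for *Cd207*. In bulk skin fewer cells of a type and less RNA per cell cannot be told apart, and the part of these cells in the results was not tested.

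Among the ft/ft libraries, replicate 2 was the highest for 27 of the 39 genes (69.2%), against 27.5% of all tested genes. Replicates 1, 3 and 4 were the highest for 7, 3 and 2 of them. Without ft/ft replicate 2, 13 of the 39 genes were higher and 3 lower, where 9.93% and 11.2% of the tested genes were: *Nfkbiz*, *Zc3h12a*, *Rel* and *Tnip1* were gained and *Tnip3* was lost. Leaving out ft/ft replicate 4 instead left 6 higher and 3 lower genes, with *Birc3*, *Nfkbid*, *Tnip3* and *Traf2* lost, and the shares of all tested genes were then 7.24% and 9.31%. *Bcl3*, *Tnfaip3*, *Map3k8*, *Map3k14*, *Traf1*, *Traf3* and *Card14* passed under each of the 15 alternative fits and at an adjusted p under 0.01. At an adjusted p under 0.05 together with a log2 fold change of at least 1, *Bcl3*, *Nfkbid*, *Tnip3*, *Map3k14* and *Traf1* passed over all 8 libraries. The plot of fits with a library left out shows which genes move with a single library.

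**Figure D4:**
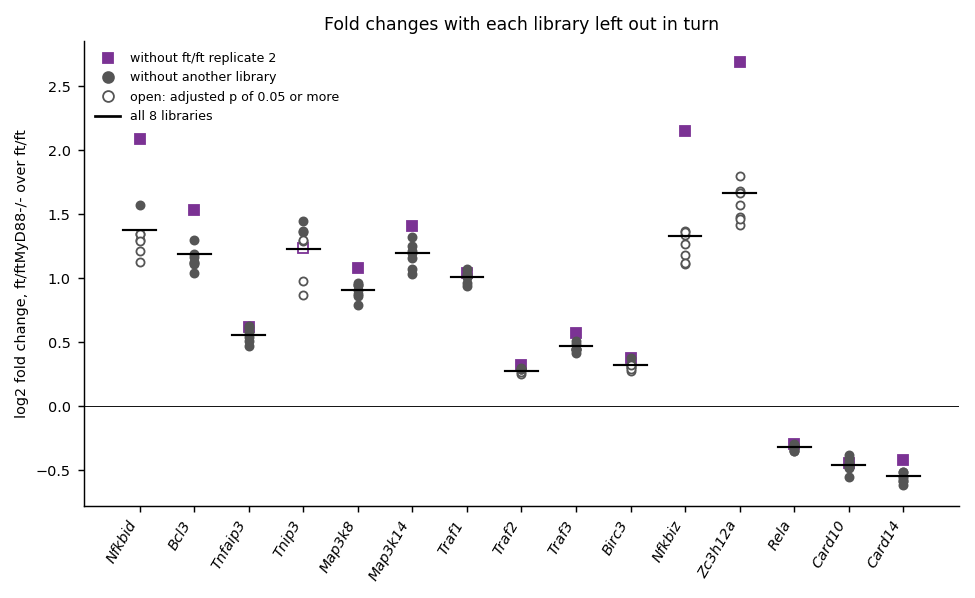
Log2 fold change of 15 genes, on the vertical axis, over all 8 libraries and after omission of each single library (ft/ftMyD88-/- over ft/ft). Open points did not pass, and the point without ft/ft replicate 2 (square) lies highest for *Nfkbiz* at 2.15 and *Zc3h12a* at 2.69, whereas *Traf1* keeps values near 1.01.

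Set side by side per kilobase of exon, the genes spanned a wide range of levels. Dividing by exon length presumes reads spread along the whole transcript, and whether these libraries meet this was not tested. In CPM without that division, *Nfkbia* stood at 109 in ft/ft, near *Tab2* at 106 and *Nfkb1* at 101. In ft/ft the lowest were *Tnip3* at 0.270 ± 0.103, *Nfkbid* at 0.458 ± 0.343, *Traf1* at 0.958 ± 0.0902 and *Map3k14* at 1.32 ± 0.512 CPM per kilobase (SD, n = 4). The mean of *Tnip3* lay within the SD range of *Nfkbid*, and that of *Traf1* within the SD range of *Map3k14*, but not the reverse. In ft/ftMyD88-/- the same genes stood at 0.625 ± 0.284, 1.22 ± 0.312, 1.93 ± 0.178 and 3.04 ± 0.243 CPM per kilobase. Under *Nfkbia*, *Bcl10* stood next in ft/ft at 28.0 ± 2.54 and within the spread of *Rela*. In ft/ftMyD88-/- *Zc3h12a* stood next at 37.7 ± 7.04, above *Bcl10* at 32.3 ± 3.25. The mean of *Bcl10* lay within the SD range of *Zc3h12a*, but not the reverse. The plot of levels per kilobase gives the order for all 39.

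**Figure D5:**
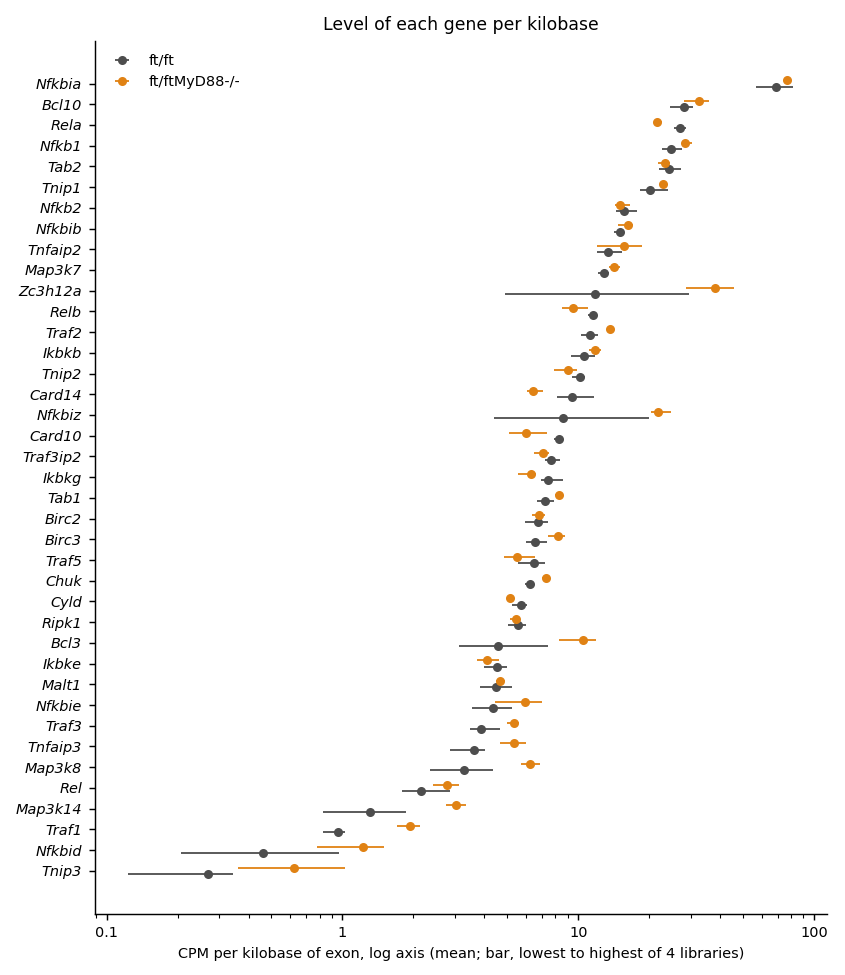
Level of each of the 39 genes in CPM per kilobase of exon on a log axis, with the mean and a bar from the lowest to the highest of the 4 libraries of ft/ft (grey) and ft/ftMyD88-/- (orange). Levels in ft/ft run from 0.270 for *Tnip3* to 68.8 for *Nfkbia*, and the longest bars belong to *Zc3h12a*, *Nfkbid* and *Nfkbiz* in ft/ft.

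A further 38 pathway components outside the 39 genes were listed for comparison. Of these, 1 was higher and 7 were lower (2.63% and 18.4%, against 10.9% and 12.3% of all tested genes). Their median log2 fold change was -0.01. With library size alone 9 were higher and 0 lower, where 22.7% and 6.48% of all tested genes were. The direction of this group thus turned with the scaling, as that of all tested genes did. The higher gene was *Nod2*, the intracellular sensor of bacterial muramyl dipeptide, at 14.2 ± 3.44 CPM for ft/ft against 22.8 ± 3.58 for ft/ftMyD88-/- (SD, n = 4; log2 fold change 0.68, edgeR adjusted p = 0.0119). Among the lower genes were *Rbck1*, a subunit of the linear ubiquitin ligase (-0.38), *Btrc*, which recognises phosphorylated IkB for destruction (-0.51), *Pdlim2*, which promotes p65 degradation (-0.33), *Otud7b*, a deubiquitinase (-0.37), and *Peli2*, a ubiquitin ligase of IL-1 receptor signalling (-0.53).

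Known target genes of NF-kappa B, the outputs of the pathway, were described in the same way. Their list was chosen with earlier results of these data known, so its share of higher genes is descriptive only. Of 29 tested, 16 were higher and 0 lower (55.2% higher, against the 10.9% of all tested genes), with a median log2 fold change of 0.71. The count fell to 7 without ft/ft replicate 1 or 3, 8 without ft/ft replicate 4, and 10 and 9 without ft/ftMyD88-/- replicate 2 and 4. The shares of all tested genes that were higher were then 9.27%, 7.93%, 7.24%, 9.63% and 7.93%. *Csf2* was not analysed here. *Cxcl1*, a neutrophil chemokine, had counts of 9, 26, 5 and 2 in ft/ft but 92, 150, 124 and 123 in ft/ftMyD88-/-. It was low in every ft/ft library, with a log2 fold change of 3.59 (SE 0.481, adjusted p = 0.000816 by edgeR). The monocyte chemokine *Ccl2* rose from 1.59 ± 0.247 to 6.20 ± 2.23 CPM, and the prostaglandin synthase *Ptgs2* from 1.97 ± 0.435 to 7.55 ± 3.67 CPM. *Ccl20*, the ligand of CCR6, rose from 1.90 ± 0.0541 to 3.98 ± 0.679 CPM, and the stress gene *Gadd45b* from 22.1 ± 2.88 to 36.2 ± 2.66 CPM (SD, n = 4 each). The log2 fold changes of these 4 were 1.95, 1.93, 1.07 and 0.71, with edgeR adjusted p of 0.000633, 0.00335, 0.00156 and 0.001. Windows of the promoters held the kappa B consensus in 8 of 19 target genes (42.1%) and in 3 of 28 other pathway components (10.7%). As the first list was made of known targets, its share of matches is descriptive only as well.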

How the data were processed

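RNA was from periocular skin of 6-week-old mice. The authors deposited raw counts per gene. The study's methods name HISAT and tophat2 for alignment to GRCm38.p6 and HTSeq at default settings, without saying that the deposited table came from them. Versions, annotation release and strand setting are not given in the sources used here. The methods also describe polyA-selected libraries, whereas the labels name total RNA, a fixed-tissue protocol and, in the submitters' processing notes, Cell Ranger, and which applies was not tested. Samples were grouped by their titles, and the 4 WT samples were not analysed here. The study gives 4 mice per group, which matches the 4 libraries of each.

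The 20454 genes with at least 10 counts in total were tested with edgeR 4.0.16 in R 4.3.3 (glmQLFit with robust estimation, glmQLFTest, TMM scaling, no covariate, two-sided, Benjamini-Hochberg adjustment at 0.05). Standard errors came from the log2 fold change and the F value. CPM are counts over TMM-scaled library size, and per-kilobase levels divide by the union of exons in GENCODE basic models on GRCm38. A library with 0 counts can hold up to 3 counts' worth, 0.102 to 0.183 CPM, and this floor covers counting error only. Gene coordinates and promoter windows are those of RefSeq on GRCm38.p6.

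Named were all 39 genes, label checks, and up to 5 genes a direction with the smallest adjusted p in the lists of other components and targets. The genes and lists were chosen with earlier results of these data known. Marker lists covered leukocytes, neutrophils, macrophages and monocytes, T cells, dendritic and Langerhans cells, keratinocytes, hyperproliferative keratinocytes, fibroblasts, endothelium, skeletal muscle and sebocytes. Alternative fits, 15 in all, were DESeq2 1.42.0, limma 3.58.1 with voom, RLE, library size alone, filterByExpr, no filter, omission of each library, and a block for replicate number. Other thresholds were an adjusted p under 0.01 and a log2 fold change of at least 1. The fit was tested on simulated data. Replicates of a group differed by far more than counting noise, so none was counted as a duplicate.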

Additional observations from a re-analysis of the deposited data

Results flagged for a closer look

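In 106 groups of 4 libraries the gap of the highest or lowest library to its nearest neighbour was set against the range of the group, and 5 exceeded Dixon's critical value, which chance does in about 1 of 20 groups. *Nfkbiz* reached 82.2 CPM in ft/ft replicate 2 against 18.1 to 23.9 CPM in the rest of ft/ft, a gap of 0.91 of the range. *Zc3h12a* reached 81.4 CPM in the same library and 13.5 to 18.3 CPM in the others, a gap of 0.929. For *Nfkb1* the high library was ft/ftMyD88-/- replicate 2, at 125 against 113 to 115 CPM, a gap of 0.86. *Ikbkg* stood apart in both groups: ft/ft replicate 1 was at 63.4 against 51.0 to 52.8 CPM, a gap of 0.854, and ft/ftMyD88-/- replicate 4 was at 40.7 against 47.4 to 48.4 CPM, a gap of 0.871.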

How the results depend on the processing

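The 10 higher genes of the 39 became 22 with library size alone, 6 at an adjusted p under 0.01, 5 with a log2 fold change of at least 1, and 6 to 13 with a library left out. The 3 lower genes became 1, 1, 0 and 3 to 4. Of the other pathway components, the 1 higher gene became 9, 0, 0 and 1 to 2, and the 7 lower genes 0, 3, 0 and 5 to 7. The 16 higher target genes became 6 at an adjusted p under 0.01 and 7 to 15 with a library left out, while 0 were lower in any of these. Shares of all tested genes were not taken at an adjusted p under 0.01 or a log2 fold change of at least 1. Counts at those cutoffs therefore say only how many of the listed genes remained. Over all genes library size alone gave 4638 higher and 1326 lower, against 2239 and 2525, and the median log2 fold change moved from 0.013 to 0.19. Under that scaling the sign turned for *Nfkb2* (0.11), *Tnip2* (0.02), *Cyld* (0.02), *Ikbke* (0.04), *Tab2* (0.12), *Traf3ip2* (0.06) and *Ripk1* (0.15). With a library left out the sign turned for *Nfkb2* (-0.11 to 0.0), *Tab2* (-0.1 to 0.0), *Birc2* (-0.03 to 0.07), *Ripk1* (-0.07 to 0.01) and *Malt1* (-0.01 to 0.14). The causes were not tested.

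Libraries of the groups share replicate numbers, but same-numbered libraries did not deviate together (correlations of -0.146, 0.0251, 0.0146 and -0.0169). These values show no pairing by number, but they cannot exclude it. With the number as a block, 8 of the 39 genes were higher and 3 lower (*Birc3* and *Traf2* were lost), 1895 and 2144 over all genes. Depth limits *Nfkbid* and *Tnip3* most, with 12 and 13 counts in the library where each was lowest.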
